A study of Mus musculus with 6 samples.

Results

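The p53 pathway stops the growth of damaged or stressed cells, and 10 of its genes were read in RAW264.7, a macrophage-like mouse cell line derived from a tumour induced by Abelson leukaemia virus. These genes encode p53 itself (Trp53), 6 genes that p53 switches on outside the BCL2 family (Mdm2, Ccng1, Phlda3, Zmat3, Trp53inp1 and Sesn1) and the GADD45 family of growth arrest and DNA damage proteins (Gadd45a, Gadd45b and Gadd45g). They were picked by gene name from the 56636 rows of the deposited table, and all 10 were found. Wild-type RAW264.7 cells had been given 25-HC or vehicle for 24 h, with 3 libraries per group. The labels leave the abbreviation 25-HC and its dose unexplained, and the series title is about cholesterol homeostasis in tumour metastasis. The question put to the data was which of these stress and arrest transcripts differed between 25-HC and vehicle. Values are TPM, a transcript abundance scaled for gene length and brought to one total in each library, which leaves sequencing depth unknown. In RNA from a whole culture, fewer cells with a transcript and less of it per cell cannot be told apart. No label says whether the libraries came from separate cultures, and p-values then measure only the spread between these libraries.

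As background, p53 is a transcription factor that is kept low by Mdm2, a ubiquitin ligase that marks it for degradation and is itself a p53 target. Its activity is governed mostly at the level of the protein, so the Trp53 transcript is not a measure of it. Its targets slow the cell cycle, repair DNA or restrain growth signals. GADD45 proteins are small acidic stress proteins that bind Pcna, Cdk1 and the kinase Map3k4. Gadd45a is a classical p53 target that other stress pathways also induce, whereas Gadd45b and Gadd45g are known for induction by NF-kB signalling and by cytokines.

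Gadd45a was higher, and Gadd45b and Gadd45g were lower, in every 25-HC library than in every vehicle library, and the 250 bases before the start site of each are shown for that reason. They are from RefSeq, build GRCm38.p6, on the strand of the gene, 5′ to 3′. Capitals mark the CCAAT box, the octamer ATGCAAAT, the E-box CACGTG and TATAAA, on either strand. Gadd45a lies at chr6:67037408-67037657 on the minus strand, Gadd45b at chr10:80929841-80930090 on the plus strand and Gadd45g at chr13:51846425-51846674 on the plus strand.
Gadd45a: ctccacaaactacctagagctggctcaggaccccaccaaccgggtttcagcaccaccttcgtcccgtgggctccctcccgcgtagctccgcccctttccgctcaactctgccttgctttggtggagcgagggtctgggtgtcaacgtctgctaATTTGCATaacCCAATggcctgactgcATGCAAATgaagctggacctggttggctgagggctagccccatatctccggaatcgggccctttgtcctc
Gadd45b: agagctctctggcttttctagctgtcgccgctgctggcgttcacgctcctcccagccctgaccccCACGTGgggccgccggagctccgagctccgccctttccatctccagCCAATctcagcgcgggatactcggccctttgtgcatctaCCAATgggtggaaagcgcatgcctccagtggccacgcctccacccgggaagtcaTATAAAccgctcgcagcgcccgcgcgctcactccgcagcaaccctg
Gadd45g: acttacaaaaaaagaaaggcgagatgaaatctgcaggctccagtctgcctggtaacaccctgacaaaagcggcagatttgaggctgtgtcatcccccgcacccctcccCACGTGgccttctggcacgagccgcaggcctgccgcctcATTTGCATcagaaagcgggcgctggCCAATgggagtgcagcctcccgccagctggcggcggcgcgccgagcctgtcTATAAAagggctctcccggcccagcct

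The upstream window of Gadd45a held the octamer at 2 places, from -97 to -90 and from -70 to -63 relative to the start site, on opposite strands and flanking a CCAAT box. That of Gadd45g held 1 octamer, from -103 to -96, and that of Gadd45b held none. Of 32851 windows of the same length in the RefSeq table, 1.6% held an octamer. Gadd45b and Gadd45g each held 1 CACGTG and 1 TATAAA, and Gadd45a held neither. These letters occurred in 6.02% and 12.4% of all windows. CCAAT was in all 3 windows and in 33.8% of all windows. TGATGNAA, a form of the element bound by C/EBP and ATF factors, was in the window of Gadd45g, where it overlaps the octamer, and in 3.45% of all windows. A p53 half-site was in the windows of Gadd45a, Mdm2, Ccng1, Trp53 and 1 of the 2 starts of Sesn1, against 7.13% of all windows. Windows were matched for 8 of the 10 genes, all but Zmat3 and Trp53inp1. The motifs were chosen after the sequences were seen, and a match is a description of letters, not of binding.

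The libraries were unequal, which bears on every value that follows. Those given 25-HC were alike, with 11971 to 12005 genes at 1 TPM or more. Vehicle 1, 2 and 3 had 11238, 9492 and 11994 such genes. Among the sixth of genes with the longest transcripts, the median log2 difference from the 25-HC average (vehicle minus 25-HC) was -0.78 in vehicle 1, -1.63 in vehicle 2 and 0.039 in vehicle 3. Among the sixth with the shortest transcripts it was 0.18, -0.051 and 0.051. The shift of vehicle 1 and 2 thus differed with transcript length, which a factor common to a library cannot follow. Vehicle 2 was the lowest vehicle library in 9 of the 10 genes and in 78.0% of all 12092 genes tested, those averaging 1 TPM or more. The median log2 difference of all genes tested, 25-HC minus vehicle, was 0.52, and the differences below are not corrected for it unless said. All 10 macrophage markers were present, summing to 2930 to 2960 TPM in 25-HC and 1840 to 2980 TPM in vehicle. Markers of T cells, B cells, neutrophils, fibroblasts and epithelial cells summed to at most 3.92 TPM in any 25-HC library and 4.23 TPM in any vehicle library for any of these cell types. Pdgfra, a fibroblast marker, was listed at 0 throughout.

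Of the 9 genes tested, 5 separated the groups completely. Gadd45a and Sesn1 were higher in every 25-HC library than in every vehicle library, and Gadd45g, Gadd45b and Phlda3 were lower. Over all genes tested, 22.6% were above and 8.1% below in this way. The count rests on vehicle 3, the vehicle library nearest to 25-HC in the long transcripts. Without it 6 of the 9 were above and 3 below, against 59.5% and 13.2% of all genes tested. Against vehicle 3 alone 2 were above and 6 below, against 28.5% and 45.7%. None of the 9 passed limma with Benjamini-Hochberg adjustment over all genes tested (adjusted p = 0.389 to 0.424), and 0.00827% of genes were called higher and 0.0% lower. At an unadjusted p under 0.05 there were 2 of the 9, Gadd45a and Gadd45g, against 11.2% of all genes tested. Trp53, Mdm2, Ccng1, Zmat3 and Trp53inp1 overlapped between groups. Trp53inp1 was under the 1 TPM filter and is given by its values.

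**Figure D1:**
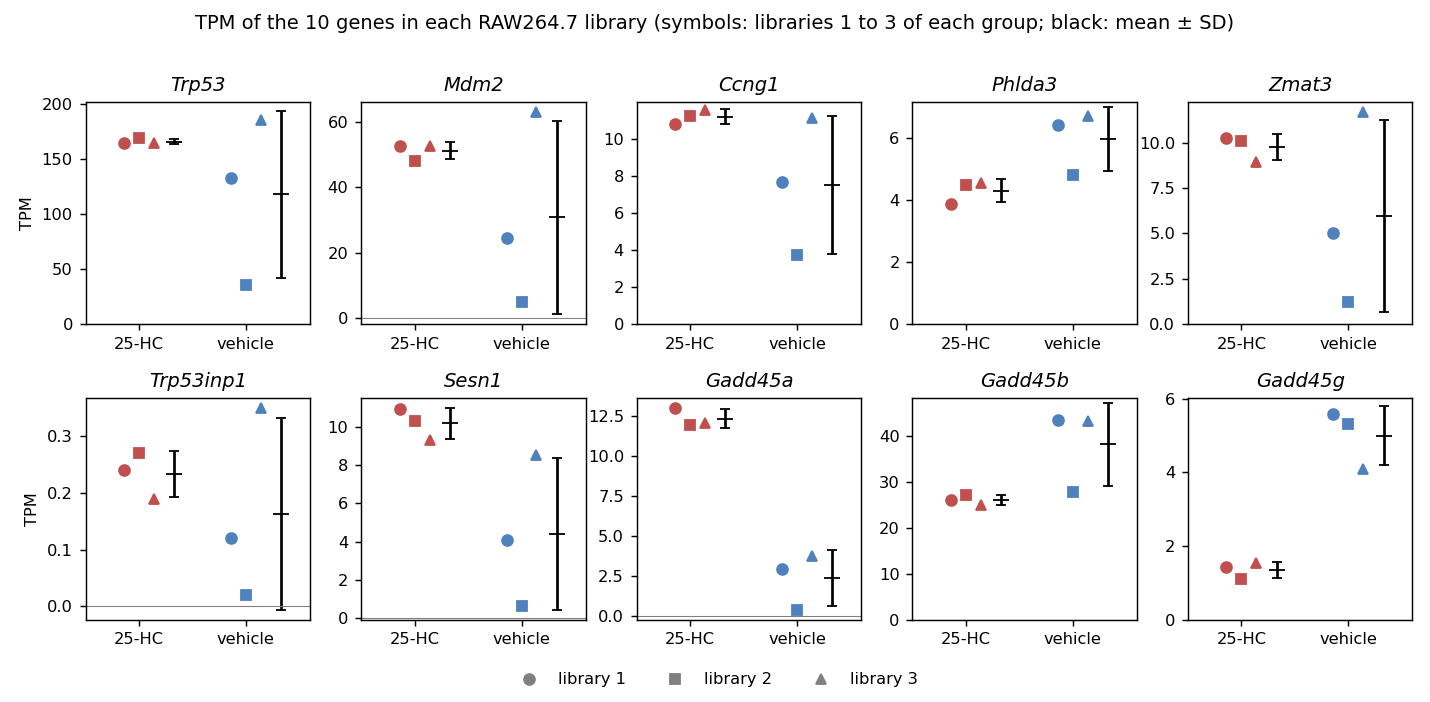
TPM of each of the 10 genes in the 25-HC libraries (left, red) and the vehicle libraries (right, blue), with symbols for libraries 1 to 3 and black bars for the mean ± SD of 3 libraries. Gadd45a and Sesn1 lie higher in every 25-HC library, Phlda3, Gadd45b and Gadd45g lie lower, and vehicle 2 is the lowest vehicle library in 9 of 10 panels.

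Trp53 (ENSMUSG00000059552) was the most abundant of the 10 transcripts. It was at 164.11, 168.65 and 164.54 TPM in 25-HC 1, 2 and 3, against 132.56, 35.55 and 185.22 TPM in vehicle 1, 2 and 3. The 25-HC libraries had a coefficient of variation of 1.51% and lay between the highest and the middle vehicle library. The mean was 166 ± 2.51 TPM in 25-HC and 118 ± 75.9 TPM in vehicle (SD, n = 3 each), a log2 difference of 0.78 (SE 0.60, adjusted p = 0.424 by limma). Without vehicle 2 that difference was 0.08, and against vehicle 3 alone it was -0.16. After median-ratio rescaling, which divides each library by 1 factor, it was 0.16. The direction for Trp53 thus turned with the vehicle library it was set against.

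Mdm2 (ENSMUSG00000020184), the ligase that holds p53 in check, was at 52.64, 48.06 and 52.68 TPM in 25-HC, against 24.45, 4.89 and 62.87 TPM in vehicle. Its vehicle values spanned 12.9-fold, and vehicle 3 was above every 25-HC library. The log2 difference was 1.29 (SE 0.83, adjusted p = 0.395 by limma), 0.37 without vehicle 2 and -0.29 against vehicle 3 alone. The ratio of Mdm2 to Trp53 inside a library cannot be changed by a factor common to the library. It was 0.321, 0.285 and 0.320 in 25-HC, against 0.184, 0.138 and 0.339 in vehicle. These ratios overlapped, with vehicle 3 highest. Ratios were chosen after the values were seen and are given as descriptions. No p-value is given for them, as an exact permutation test of 3 against 3 libraries cannot go below 0.1.

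Ccng1 (ENSMUSG00000020326) encodes cyclin G1, a p53 target that brings a phosphatase to Mdm2. It was at 10.80, 11.23 and 11.57 TPM in 25-HC, against 7.65, 3.73 and 11.14 TPM in vehicle. Vehicle 3 lay between the 25-HC libraries. The log2 difference of 0.62 (SE 0.40, adjusted p = 0.395 by limma) shrank to 0.0066 with vehicle 3 as the one comparison library, and to 0.069 under median-ratio rescaling.

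Zmat3 (ENSMUSG00000027663), a zinc finger protein that binds RNA, was at 10.27, 10.09 and 8.94 TPM in 25-HC, against 5.03, 1.21 and 11.68 TPM in vehicle. Its longest annotated transcript, at 7797 bases, was the longest of the 10. The log2 difference was 0.96 (SE 0.63, adjusted p = 0.399 by limma), and 0.17 once each library's trend with transcript length had been subtracted. Vehicle 3 was again above every 25-HC library, with a log2 difference of -0.24 against it alone.

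Trp53inp1 (ENSMUSG00000028211), a stress-induced nuclear protein that acts with p53, was barely detected. It was at 0.24, 0.27 and 0.19 TPM in 25-HC, against 0.12, 0.02 and 0.35 TPM in vehicle. Vehicle 3 was the highest library and vehicle 2 the lowest. Across the 6 libraries, Trp53, Mdm2, Ccng1 and Zmat3 had Pearson r of 0.97 to 1.0 with each other on log2(TPM + 1), and Trp53inp1 had 0.87 to 0.94 with these 4. All 5 had vehicle 2 lowest and vehicle 3 highest among vehicle libraries, as did 67.1% of all genes tested, so these correlations share the differences between the vehicle libraries.

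Sesn1 (ENSMUSG00000038332) encodes sestrin 1, a p53 target that restrains the growth kinase mTORC1. It was at 10.94, 10.34 and 9.33 TPM in 25-HC, against 4.08, 0.60 and 8.56 TPM in vehicle. Every 25-HC library was above every vehicle library, by a small margin over vehicle 3. The mean was 10.2 ± 0.814 TPM in 25-HC and 4.41 ± 3.99 TPM in vehicle (SD, n = 3 each), 2.31-fold, with a log2 difference of 1.39 (SE 0.65, adjusted p = 0.389 by limma). Against vehicle 3 alone it was 1.19-fold. The log2 difference was 0.99 after median-ratio rescaling and 0.72 after subtraction of the length trend, and the groups stayed apart in both. It was 0.68 without vehicle 2, a setting in which groups already apart could not come to overlap. After median-ratio rescaling the same 5 genes as before separated the groups, against 18.7% of all genes tested above and 17.9% below.

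Sesn1 tracked Mdm2 closely but not fully, with a Pearson r of 0.98 on log2(TPM + 1). Both had vehicle 2 lowest and vehicle 3 highest among vehicle libraries, as did 67.1% of all genes tested. This likeness thus shares the differences between the vehicle libraries. The ratio of Sesn1 to Mdm2 was 0.208, 0.215 and 0.177 in 25-HC, against 0.167, 0.123 and 0.136 in vehicle. Each 25-HC library was above each vehicle library, narrowly over vehicle 1, with a log2 difference of the ratio of 0.50. The ratio carries no pseudocount, and Sesn1 was at 0.60 TPM in vehicle 2. With the length trend subtracted, the log2 differences were 0.72 for Sesn1 and 0.70 for Mdm2. After quantile normalization both were 0.79.

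Phlda3 (ENSMUSG00000041801), a p53 target that holds back the kinase Akt, was the one p53 target of the 6 that was lower with 25-HC in every library. It was at 3.87, 4.49 and 4.55 TPM in 25-HC, against 6.41, 4.79 and 6.70 TPM in vehicle. The gap to vehicle 2 was narrow, while vehicle 1 and 3 were close to each other. The mean was 4.30 ± 0.376 TPM in 25-HC and 5.97 ± 1.03 TPM in vehicle (SD, n = 3 each), a log2 difference of -0.38 (SE 0.27, adjusted p = 0.408 by limma). The median of all genes tested was 0.52 on that scale. After median-ratio rescaling Phlda3 was at -0.92 and that median at 0.0085, and after quantile normalization they were at -1.04 and 0.02. With the length trend subtracted they were at -0.63 and 0.0026. The rescaling raised vehicle 2 from 4.79 to 11.7, above every other library. Against vehicle 3 alone Phlda3 was -0.54. Its direction held under median-ratio rescaling, quantile normalization and subtraction of the length trend. With the groups apart as deposited, leaving out libraries or changing the pseudocount could not have turned it.

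Gadd45a (ENSMUSG00000036390) had the largest log2 difference of the 9 genes. It was at 13.03, 11.96 and 12.05 TPM in 25-HC, against 2.91, 0.37 and 3.76 TPM in vehicle. The lowest 25-HC library was above the highest vehicle library, vehicle 3, by a wide margin. The mean was 12.3 ± 0.593 TPM in 25-HC and 2.35 ± 1.76 TPM in vehicle (SD, n = 3 each), which is 5.26-fold, and 3.28-fold against vehicle 3 alone. The log2 difference was 2.18 (SE 0.51, adjusted p = 0.389 by limma), and 1.34% of all genes tested had a larger one.

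Unlike Trp53 and Mdm2, Gadd45a kept most of its difference when the libraries were treated otherwise. Its log2 difference was 1.81 after median-ratio rescaling, 2.02 after subtraction of the length trend, 1.59 after quantile normalization and 1.63 without vehicle 2. Against vehicle 3 alone it was 1.49 and passed (adjusted p = 0.018 by limma), with the single vehicle library assumed to vary as the 25-HC libraries do. The vehicle libraries in fact spread more widely on the log2 scale than the 25-HC libraries in 92.3% of all genes tested and in all 9 members tested, so the p-values against vehicle 3 alone rest on the narrower 25-HC spread. In that comparison 4.52% of all genes tested were called higher and 6.33% lower. With vehicle 2 left out and the length trend subtracted, settings combined after the data were seen, Gadd45a (1.67, adjusted p = 0.0113 by limma), Gadd45b (-0.69, adjusted p = 0.025) and Gadd45g (-1.24, adjusted p = 0.038) passed, against 2.74% of all genes tested called higher and 1.39% lower. With vehicle 2 left out and median-ratio rescaling, of these 3 Gadd45a passed (1.47, adjusted p = 0.0299 by limma), against 0.289% called higher and 0.091% lower. The antisense gene E230016M11Rik, which overlaps exons of Gadd45a in GENCODE M21, was at most 1.14 TPM in 25-HC and 0.67 TPM in vehicle, and whether reads were counted by strand is not given in the sources used here.

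Gadd45b (ENSMUSG00000015312), the most abundant GADD45 gene, was at 26.01, 27.19 and 24.94 TPM in 25-HC, against 43.55, 27.74 and 43.29 TPM in vehicle. Vehicle 1 and 3 nearly coincided, and vehicle 2 was just above the highest 25-HC library. The mean was 26.0 ± 1.13 TPM in 25-HC and 38.2 ± 9.05 TPM in vehicle (SD, n = 3 each), a log2 difference of -0.51 (SE 0.27, adjusted p = 0.389 by limma). Median-ratio rescaling took vehicle 2 from the lowest vehicle library to the highest, at 67.8. The log2 difference was then -1.12, and it was -0.69 with the length trend subtracted instead and -0.72 without vehicle 2 (adjusted p = 0.0844 by limma). Against vehicle 3 alone it was -0.71 and passed (adjusted p = 0.0301 by limma).

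Gadd45g (ENSMUSG00000021453) was low in all libraries and lowest with 25-HC. It was at 1.44, 1.11 and 1.53 TPM in 25-HC, against 5.58, 5.32 and 4.09 TPM in vehicle. This was the one member of the 10 in which vehicle 2 was not the lowest vehicle library. The coefficient of variation was 16.3% in 25-HC and 15.9% in vehicle. The mean was 1.36 ± 0.221 TPM in 25-HC and 5.00 ± 0.796 TPM in vehicle (SD, n = 3 each), a ratio of 0.272. The log2 difference was -1.34 (SE 0.26, adjusted p = 0.389 by limma), and 1.41% of all genes tested had a lower one. It passed without vehicle 3 (-1.45, adjusted p = 0.0479 by limma), where 5.55% of all genes tested were called higher and 0.422% lower, and against vehicle 3 alone (-1.11, adjusted p = 0.0416 by limma).

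**Figure D2:**
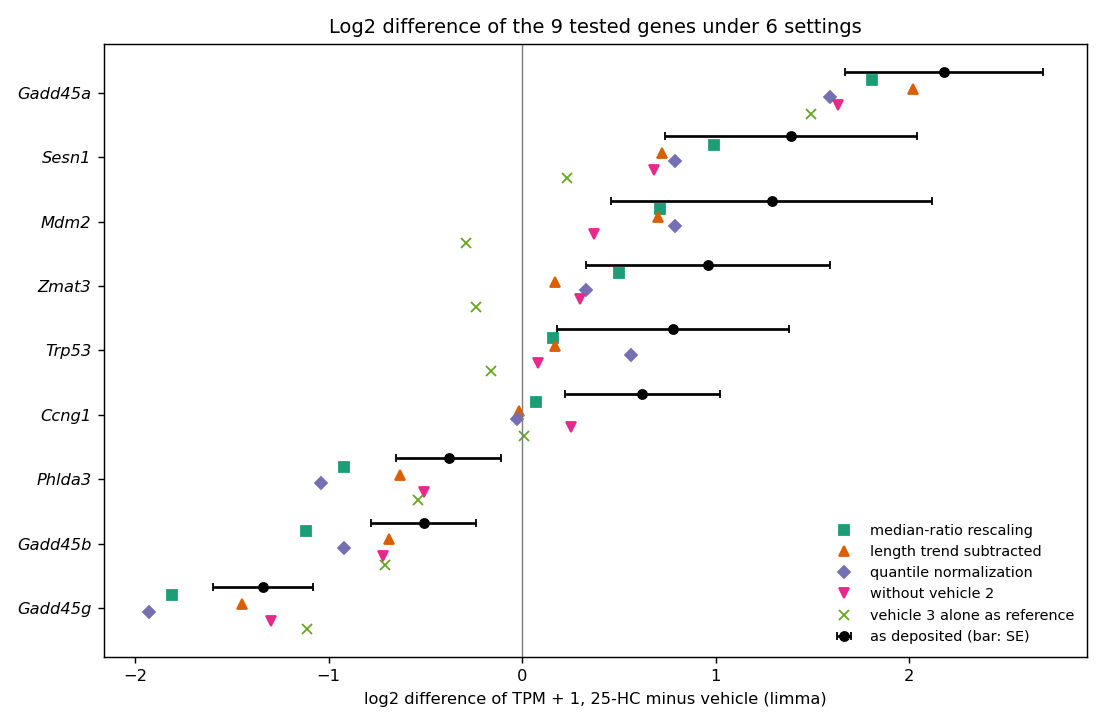
Log2 difference of TPM + 1 (25-HC minus vehicle, limma) for the 9 tested genes under 6 settings, with the SE shown for values as deposited. Gadd45a and Sesn1 stay right of 0 and Phlda3, Gadd45b and Gadd45g stay left of 0 in all 6, while Trp53, Mdm2, Zmat3 and Ccng1 have values on both sides.

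Within the GADD45 family the balance differed between the groups. Gadd45a made up 32.2%, 29.7% and 31.3% of the summed GADD45 TPM in 25-HC 1, 2 and 3, against 5.59%, 1.11% and 7.35% in vehicle 1, 2 and 3. The share of Gadd45b was 64.3%, 67.5% and 64.7% in 25-HC, against 83.7%, 83.0% and 84.6% in vehicle, where it was even across 3 otherwise unlike libraries. Gadd45g took 3.56%, 2.76% and 3.97% in 25-HC, against 10.7%, 15.9% and 8.0% in vehicle. The family total was 38.5 to 40.5 TPM in 25-HC and 33.4 to 52.0 TPM in vehicle, and these totals overlapped. That the Gadd45a share separated the groups follows from the directions of the 3 genes and is no further result, so the shares serve to give the sizes.

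**Figure D3:**
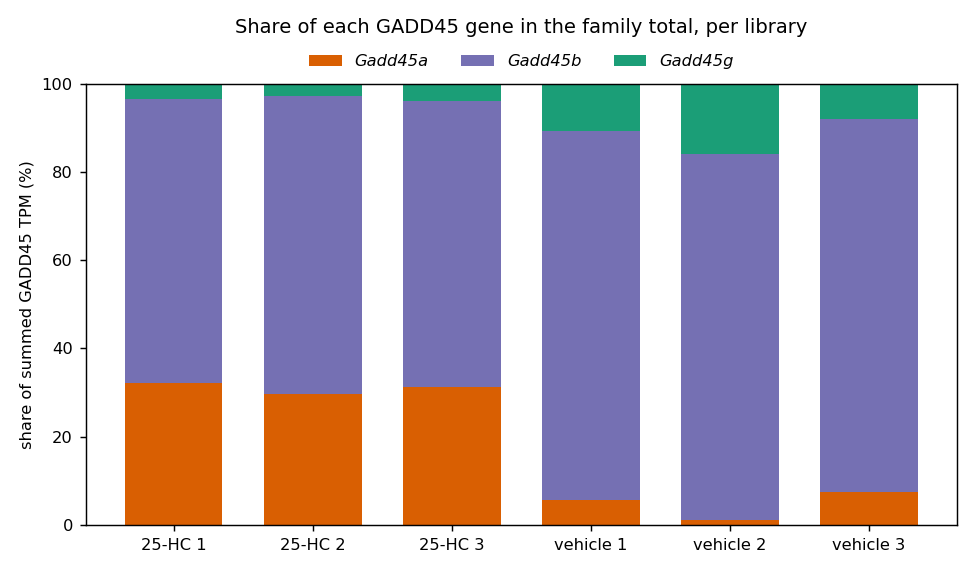
Share in percent of Gadd45a, Gadd45b and Gadd45g in the summed GADD45 TPM of each library (25-HC left, vehicle right). The Gadd45a part is 29.7% to 32.2% in 25-HC libraries and 1.11% to 7.35% in vehicle libraries.

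Ratios between these paralogs do not depend on a factor common to a library, and the longest annotated transcripts are alike in length, at 1223, 1284 and 1071 bases for Gadd45a, Gadd45b and Gadd45g. The ratio of Gadd45a to Gadd45b was 0.501, 0.440 and 0.483 in 25-HC, against 0.0668, 0.0133 and 0.0869 in vehicle. That is a log2 difference of 3.48, or 11.1-fold as a geometric mean, which was 2.64 on the log2 scale without vehicle 2 and 2.45 against vehicle 3 alone. The ratio of Gadd45a to Gadd45g was 9.05, 10.8 and 7.88 in 25-HC, against 0.522, 0.0695 and 0.919 in vehicle, a log2 difference of 4.83. Leaving out vehicle 2 lowered this to 3.73, and vehicle 3 by itself gave 3.32. Gadd45a thus exceeded Gadd45g in every 25-HC library and was below it in every vehicle library. The ratio of Gadd45b to Gadd45g was 18.1, 24.5 and 16.3 in 25-HC, against 7.80, 5.21 and 10.6 in vehicle, a log2 difference of 1.36 that was 0.87 against vehicle 3 alone. For the ratios with Gadd45a, separation of the groups was fixed by the opposite directions of the genes.

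The genes most alike Gadd45a over the 6 libraries, among 8441 others averaging at least 5 TPM, were Msmo1 (Pearson r 0.9990), Trib3 (0.9987) and Rnf213 (0.9981). Msmo1, a sterol demethylating enzyme, was at 60.36, 61.13 and 59.28 TPM in 25-HC, against 15.40, 4.61 and 21.11 TPM in vehicle. An r above 0.95 with Gadd45a was seen in 462 of these genes. For Trp53 the closest were Lix1l (0.9999), Pip5k1b (0.9999) and Rnf10 (0.9998), and 3812 genes were above 0.95. Trp53 thus followed a pattern that a large part of the table shared, and vehicle 2 was the lowest library in each of these 3 genes.

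Genes around the pathway were read from 4 lists. None of their genes passed limma with adjustment over all genes tested (lowest adjusted p = 0.389 in each list). Counts of genes above or below without overlap are to be read against the shares of all genes tested, which were 22.6% above and 8.1% below with all libraries and 23.6% and 16.9% without vehicle 2. The shares without vehicle 3 and against vehicle 3 alone are those given for the members. With any one of the other 4 libraries left out, the counts of each list moved by at most 2 genes. Among regulators of p53, 16 of 18 were tested, with 2 at an unadjusted p under 0.05. Of these 16, 4 were above and 1 below without overlap, and the median log2 difference was 0.40, against 0.52 for all genes. Without vehicle 3 there were 9 above and 3 below, and against vehicle 3 alone 5 and 5. Crebbp, an acetyltransferase that acts on p53, was at 3.40, 3.02 and 3.25 TPM in 25-HC, against 1.08, 0.45 and 2.38 TPM in vehicle. Ep300 was at 8.10, 8.08 and 7.93 TPM in 25-HC, against 0.96, 0.25 and 7.04 TPM in vehicle. Both were higher with 25-HC in every library, Ep300 by a small margin over vehicle 3. With the length trend subtracted, the log2 difference fell from 0.96 to 0.18 for Crebbp and from 1.74 to 0.96 for Ep300. Rpl11, a ribosomal protein that can bind Mdm2, was at 2320 ± 76.8 TPM in 25-HC and 3640 ± 1880 TPM in vehicle (SD, n = 3 each), with overlap.

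Upstream of p53, Cdkn2a, which encodes the Mdm2 inhibitor ARF, was listed at 0 TPM in all 6 libraries, and the kinase Atr was at most 0.56 TPM in 25-HC and 0.39 TPM in vehicle. These 2 genes of the list did not reach the filter and were named after their values were seen.

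Other p53 target genes had a median close to that of all genes. Of 32 listed, 27 were tested, 4 were above and 1 below without overlap, and 1 had an unadjusted p under 0.05. There were 18 above and 2 below without vehicle 3, 4 and 5 without vehicle 2, and 4 and 18 against vehicle 3 alone. Their median log2 difference was 0.55 as deposited and -0.10 without vehicle 2, against 0.52 and 0.13 for all genes. Trp53cor1, the long noncoding RNA lincRNA-p21, was at 8.19, 7.74 and 7.47 TPM in 25-HC, against 13.07, 13.64 and 12.53 TPM in vehicle. Its 2 groups were each tight and did not overlap (log2 difference -0.68, SE 0.24, adjusted p = 0.389 by limma), and it was -1.26 after median-ratio rescaling and -1.28 with the length trend subtracted. Its neighbour Cdkn1a, which encodes the cell cycle inhibitor p21 and was chosen after its values were seen, was at 132.87, 130.39 and 137.04 TPM in 25-HC, against 129.32, 53.49 and 213.32 TPM in vehicle. These values overlapped, with a log2 difference of 0.22 (SE 0.49, adjusted p = 0.752 by limma), although every 25-HC library was below every vehicle library after median-ratio rescaling (-0.41). Fas, the death receptor, was at 1.75 ± 0.270 TPM in 25-HC and 0.697 ± 0.515 TPM in vehicle (SD, n = 3 each). Trim32, a ubiquitin ligase of p53, was at 12.22, 11.38 and 11.99 TPM in 25-HC, against 5.17, 0.74 and 13.00 TPM in vehicle, where vehicle 3 was again the highest library.

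Most paralogs of the 10 genes were under the filter. Of 10 listed, 4 were tested, 1 had an unadjusted p under 0.05 and 2 were above without overlap, which was 3 without vehicle 3. Against vehicle 3 alone 2 were above and 1 below. The median log2 difference was 1.41 as deposited, 0.72 without vehicle 2 and 0.093 against vehicle 3 alone. For all genes tested it was 0.52, 0.13 and -0.071 in the same settings. Sesn2, the sestrin that is also induced through ATF4, was at 20.16, 19.26 and 19.63 TPM in 25-HC, against 5.52, 2.19 and 10.65 TPM in vehicle. Every 25-HC library was well above vehicle 3, with a log2 difference of 1.73 (SE 0.49, adjusted p = 0.389 by limma), 1.20 after median-ratio rescaling and 1.25 without vehicle 2. Trp53inp2 was at 5.02, 5.90 and 5.68 TPM in 25-HC, against 1.82, 0.60 and 4.78 TPM in vehicle, a narrow separation. Trp63, Phlda2 and Zmat4, named after their values were seen, were listed at 0 in all libraries.

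All 9 listed partners of GADD45 proteins were tested, with 0 at an unadjusted p under 0.05. None was above and 1 was below without overlap. The median log2 difference was 0.84, and 0.15 without vehicle 2, against 0.52 and 0.13 for all genes tested. Without vehicle 3 there were 8 above and 1 below (median 1.28), and against vehicle 3 alone 0 above and 8 below (median -0.20). The median of all genes tested was 0.81 and -0.071 in these settings, so it turned in the same direction. The p38 kinase Mapk14 was at 36.72, 31.89 and 32.77 TPM in 25-HC, against 19.39, 9.08 and 34.45 TPM in vehicle, with overlap. Gadd45gip1, a mitochondrial ribosome protein first found as a GADD45 binding partner, was at 21.31, 21.50 and 19.95 TPM in 25-HC, against 28.24, 65.07 and 22.74 TPM in vehicle. All its 25-HC values were lower, with vehicle 2 far above the rest, and its groups overlapped after median-ratio rescaling.

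**Figure D4:**
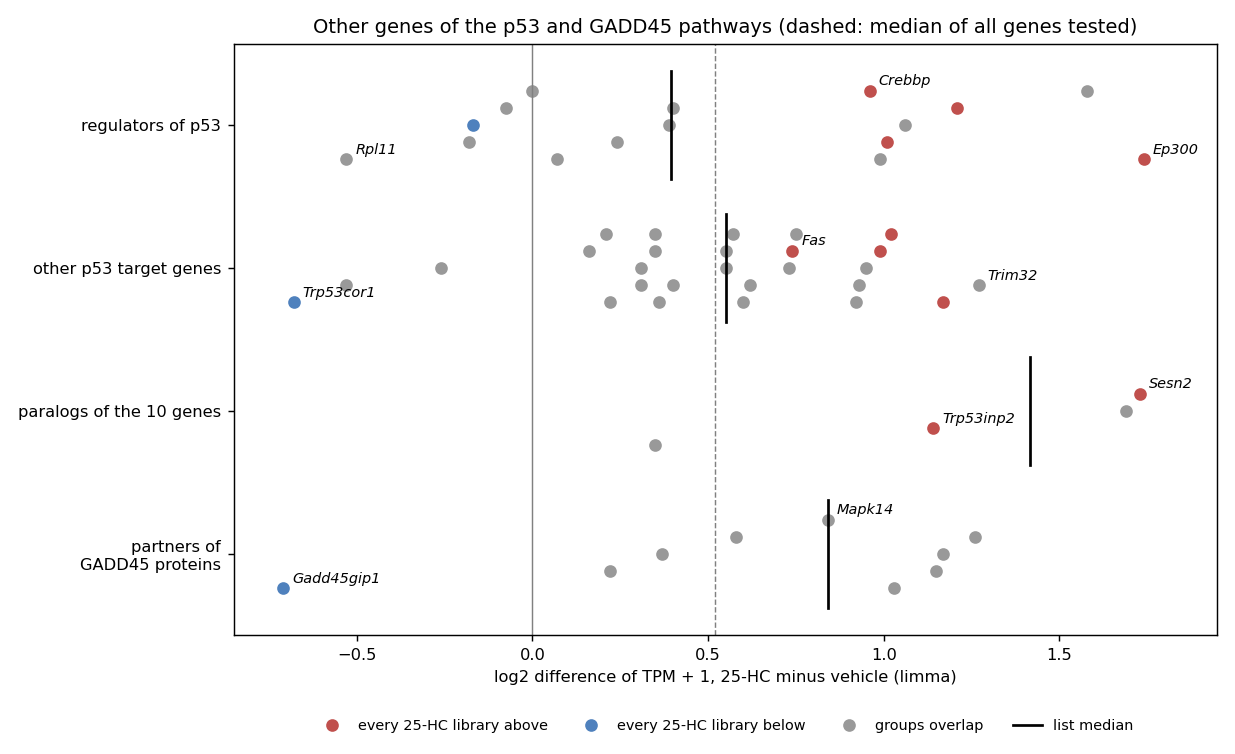
Log2 difference of TPM + 1 (25-HC minus vehicle, limma) of each tested gene of 4 pathway lists, with list medians as black bars and the median of all genes tested, 0.52, as a dashed line. Coloured points separate the groups completely, and most points are grey; Sesn2 (1.73) and Trp53cor1 (-0.68) lie toward opposite ends.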

How the data were processed

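RNA of RAW264.7 cells was sequenced in 6 libraries from TruSeq kits, per the labels' protocols. The authors deposited TPM per gene and library, and HISAT2, StringTie, RSEM and build GRCm39 were used, per the submitters' processing notes. The annotation release is not stated in these sources, nor is strandedness. TPM keeps no counts, so no counting interval was possible. Each library summed to about 1000000 TPM, and 11 empty columns were ignored.

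Genes with a mean of 1 TPM or more entered limma 3.58.1 under R 4.3.3, on log2(TPM + 1) values (mean-variance trend, two-sided, Benjamini-Hochberg, threshold 0.05), which understates differences of low genes. Folds are ratios of mean TPM. The code was tested on simulated data. Transcript lengths (92.1% of tested genes) came from GENCODE M21, of another build, and the length trend was a loess fit per library (span 0.75, degree 2). Titles gave groups and replicate numbers. Members, lists and settings were chosen with earlier results of these data known. Named were all members and, per list, the 2 smallest p and the largest opposite difference. Others are marked.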

Additional observations from a re-analysis of the deposited data

How the results depend on the processing

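Over 18 other settings (17 for Gadd45g, which a mean of at least 5 TPM leaves out), 5 of the 9 tested genes kept their direction in each one that gave a value (Gadd45a 1.27 to 2.82, Sesn1 0.23 to 1.97, Phlda3 -1.04 to -0.23, Gadd45b -1.12 to -0.40 and Gadd45g -1.93 to -0.65 on the log2 scale), and 4 turned in at least 1. These 5 are the genes whose groups did not overlap as deposited. For them a changed pseudocount, filter, variance trend or replicate block, or libraries left out, could not turn the direction. Only median-ratio rescaling, quantile normalization and subtraction of the length trend could have turned it. Against vehicle 3 alone, Trp53 was -0.16, Mdm2 -0.29, Zmat3 -0.24 and the log2 ratio of Mdm2 to Trp53 differed by -0.14. Ccng1 was -0.025 after quantile normalization and -0.015 after subtraction of the length trend. In 2 settings chosen after seeing the data, vehicle 2 was left out together with a correction: with median-ratio rescaling Trp53 was -0.065, and with the length trend subtracted Trp53 was -0.11 and Zmat3 -0.083. These 2 settings called 46 and 460 genes in all.

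The number of genes called, 1 as deposited, was 0 with a pseudocount of 5, 0 with no filter, 0 with a mean of at least 5 TPM, 2 after median-ratio rescaling, 5 after quantile normalization, 19 after subtraction of the length trend and 1312 against vehicle 3 alone. Leaving out 1 library gave 0 to 722, the highest without vehicle 3, and 13 without vehicle 2. The groups did not overlap in 5 members as deposited, where 30.7% of all genes tested were separated in either direction, in 8 against vehicle 3 alone (74.1%), and in 5 to 9 with 1 library left out (33.6% to 72.7%, both highest without vehicle 3). The cause was not tested. With the replicate number as a replicate block, 0 genes were called and no member passed. Deviations of same-numbered libraries had r of -0.013, 0.056 and 0.030, so the numbers were not taken as pairs. With 3 libraries per group and no depth known, small differences among low genes such as Trp53inp1 were not detectable.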
